A study of Mus musculus with 88 samples.

Results

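Bulk RNA of Mtf2 null and wild-type (WT) mouse cells was compared after 24 h of monolayer differentiation toward mesoderm. The comparison takes every mesoderm library that the labels place at 24 h in these genotypes, 2 of Mtf2 null and 2 of WT, which makes 4 of the 88 samples of the series and 4 of the 24 libraries of its mesoderm experiment. The other mesoderm libraries are Jarid2 null at 24 h and all 3 genotypes undifferentiated, at 5 h and at 48 h. A matching experiment of 24 libraries followed differentiation toward endoderm.

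By the labels, WT cells were E14 mouse embryonic stem cells (mESCs). Mtf2 null cells carry a gene trap in both copies of Mtf2 (Mtf2 GT/GT), and the labels give the strain as E14 for both groups. Both groups were grown in serum with leukaemia inhibitory factor and then kept for 24 h in medium that induces mid primitive streak, with Activin A, BMP4, FGF2 and the Wnt activator CHIR99021. The study's methods name the line Pcl1-3 wt as the matched control of Mtf2 null cells in bulk RNA sequencing, while the labels of these WT libraries give E14, so loss of Mtf2 and other differences between the lines cannot be told apart here. The study describes duplicates of the directed differentiation as technical, so p-values measure only the spread between these libraries, and each genotype is 1 line.

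Polycomb repressive complex 2 (PRC2) places methyl groups on lysine 27 of histone H3 and holds developmental genes at a low level in mESCs. MTF2 is a Polycomblike accessory subunit that binds CpG-rich DNA and brings the core complex to its targets, in a form of PRC2 separate from the one with JARID2. The primitive streak, from which mesoderm and endoderm arise, forms under Nodal, BMP, Wnt and FGF signals, and its cells express the T-box factors T and Eomes.

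Levels are given in CPM, the usual unit of counts scaled to a common library size, and libraries 1 and 2 of each genotype are given in that order. The 4 libraries held between 10809341 and 13411552 estimated counts, within the range of 9112116 to 16898498 over the mesoderm experiment. A gene was called when its p from edgeR's quasi-likelihood test, after Benjamini-Hochberg adjustment, was below 0.001 and its log2 fold change lay outside -1 to 1, and all adjusted p-values below are from that test. At 24 h, 1051 of 18361 genes tested (5.72%) were called, 511 higher (2.78%) and 540 lower (2.94%) in Mtf2 null cells. The count was 693 without Mtf2 null library 1 and 692 without WT library 2. The median log2 fold change over all genes tested was -0.005.

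Mtf2 itself (chr5:108065674-108109004, GRCm38) was at 34.4 and 34.0 CPM in the Mtf2 null libraries and at 254 and 235 CPM in the WT libraries. It was lower in both Mtf2 null libraries than in either WT library, by a log2 fold change of -2.83 (SE 0.17, adjusted p = 8.39e-11). Of the 12 PRC2 subunits tested, Mtf2 included, no other was called, and the log2 fold changes of the others lay between -0.19 for Phf1 and 0.66 for Suz12, a subunit of the core complex. Jarid2, the defining subunit of the other form of the complex, was at 452 and 444 against 318 and 337 CPM, a log2 fold change of 0.45 (SE 0.12, adjusted p = 0.00827).

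**Figure D1:**
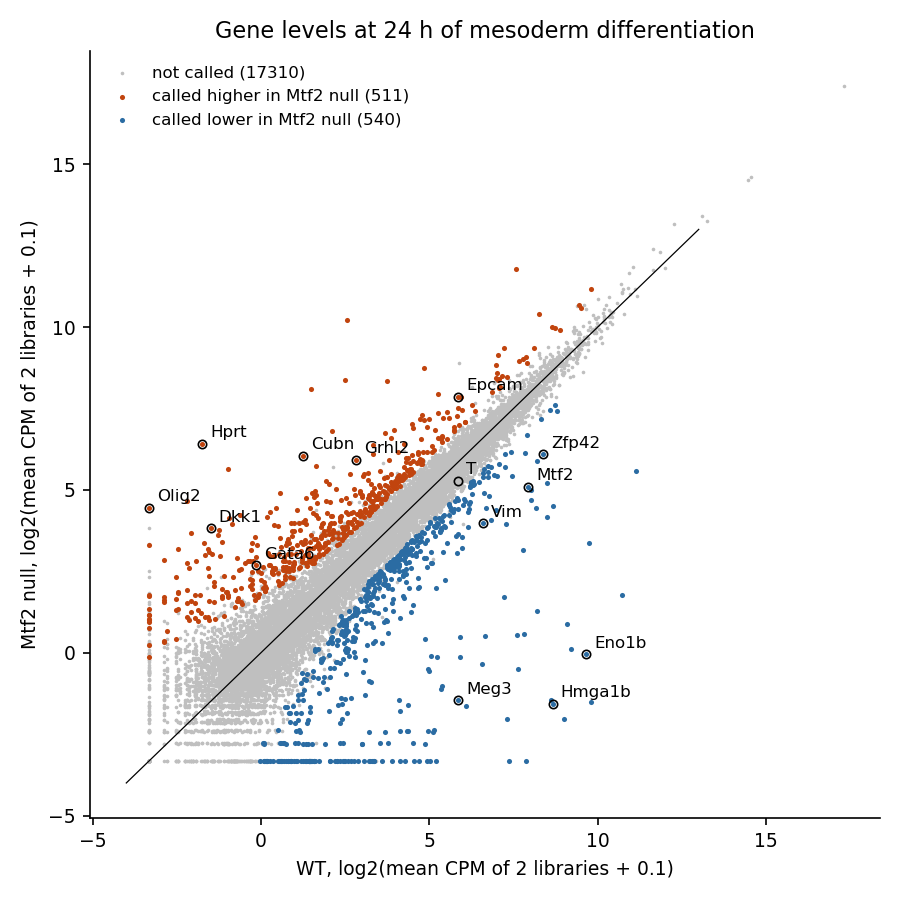
Mean level of each of the 18361 genes tested at 24 h, as log2 of the mean CPM of 2 libraries plus 0.1, in WT (horizontal axis) and Mtf2 null cells (vertical axis). The 511 genes called higher lie above the line of equal levels and the 540 called lower lie below it, with Olig2 at 0 in WT cells and Mtf2 at 34.4 and 34.0 against 254 and 235 CPM.

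The 24 h libraries carried primitive streak markers, although not all of them. In WT cells T was called higher than in undifferentiated cells, by a log2 fold change of 8.22 (SE 0.47, adjusted p = 1.43e-10), from 0.197 and 0.17 CPM to 55.6 and 59.8 CPM. Eomes was called higher by 1.97 (SE 0.24, adjusted p = 3.70e-06), among 1278 genes (6.96%) called between the same WT libraries. Mixl1, a homeobox gene of the streak, was at 0.95 and 0.836 CPM in Mtf2 null and at 0.542 and 0.729 CPM in WT libraries, and Mesp1, of nascent mesoderm, had 1 count in all 4 libraries together. Wnt3, a Wnt ligand called higher by 6.02 in WT cells over the 24 h, was lower in Mtf2 null cells without a call. It was at 0.665 and 1.76 against 3.71 and 3.57 CPM (log2 fold change -1.56, SE 0.46, adjusted p = 0.017). The streak markers T, Eomes, Mixl1, Mesp1, Fgf8 and Wnt3 summed to 57.9 and 55.4 against 73.0 and 76.5 CPM, and T made up most of each sum. The pluripotency genes Nanog, Esrrb, Klf4, Zfp42 and Tfcp2l1 together still made up 1830 and 1810 CPM in Mtf2 null and 1840 and 1800 CPM in WT libraries. These near-equal sums held differences in both directions. Tfcp2l1 was at 966 and 959 against 658 and 665 CPM, Nanog at 322 and 292 against 233 and 213 CPM and Klf4 at 120 and 106 against 103 and 95.4 CPM. Zfp42, at 64.2 and 73.0 against 343 and 324 CPM, and Esrrb, at 361 and 382 against 507 and 499 CPM, were lower. Of these genes only Zfp42 was called. Markers of neural ectoderm summed to 1.81 to 5.24 CPM, of trophoblast to 7.08 to 9.37 CPM and of fibroblasts to 5.51 to 7.22 CPM over the 4 libraries. The definitive endoderm markers Sox17, Foxa2 and Cer1 summed to 8.93 and 8.95 CPM in Mtf2 null and 1.08 and 0.729 CPM in WT libraries.

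Of the 28 members of the primitive streak and nascent mesoderm list, 19 were tested, and 1 was called higher and 0 lower in Mtf2 null cells. This is 5.26% of those tested, near the 5.72% of all genes tested. The median log2 fold change was 0.31, and 0.08 in a fit of the 4 libraries alone. The other 9 had at most 15 counts in any of the 4 libraries. The member called was Cdx1, a homeobox gene induced by Wnt in the streak, at 43.5 and 46.8 CPM in Mtf2 null and 20.3 and 17.4 CPM in WT libraries. Both Mtf2 null libraries lay above both WT libraries, with a log2 fold change of 1.26 (SE 0.19, adjusted p = 5.95e-05). The call was lost without Mtf2 null library 2 (1.21, adjusted p = 0.00157) and without WT library 2 (1.15, adjusted p = 0.00372). T was at 40.0 and 37.6 CPM in Mtf2 null and at 55.6 and 59.8 CPM in WT libraries. Its log2 fold change of -0.57 (SE 0.24, adjusted p = 0.103) was not called. Eomes was at 15.9 and 14.7 CPM against 12.7 and 12.0 CPM, a log2 fold change of 0.31 (SE 0.21, adjusted p = 0.325). Cdx2, the paralogue of Cdx1, was at 4.66 and 4.43 against 4.52 and 4.52 CPM, and Nodal, the TGF-beta ligand that patterns the streak, was at 59.1 and 66.2 against 65.8 and 66.3 CPM.

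Genes of extraembryonic endoderm, the lineage of the yolk sac that shares GATA and SOX factors with definitive endoderm, were the group with the most called members. Of its 20 members 17 were tested, and 13 were called higher and 0 lower, 76.5% against 5.72% of all genes tested. The median log2 fold change was 2.47, and all 17 were above 0. Between 11 and 13 were called when any of the 4 libraries was left out. Cubn, the endocytic receptor cubilin of visceral endoderm, was at 67.2 and 65.5 CPM in Mtf2 null and 2.17 and 2.33 CPM in WT libraries. It was 29.2-fold higher, a log2 fold change of 4.87 (SE 0.23, adjusted p = 2.55e-12), and its partner Amn was at 5.04 and 5.02 against 0.452 and 0.292 CPM (log2 fold change 3.75, SE 0.42). In bulk RNA, more cells of a type and more RNA per cell cannot be told apart.

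The transcription factors of this lineage differed in the same direction. Gata6, a GATA factor of primitive endoderm and cardiac mesoderm, was at 6.27 and 6.44 CPM in Mtf2 null and 0.723 and 0.875 CPM in WT libraries. The log2 fold change was 2.96 (SE 0.34, adjusted p = 1.96e-06), with no overlap between the groups. Sox17, an SRY-box factor of endoderm, was at 7.03 and 6.77 against 0.723 and 0.656 CPM, a log2 fold change of 3.31 (SE 0.50, adjusted p = 4.89e-05), and the related Sox7 at 9.03 and 7.11 against 1.45 and 1.82 CPM. Sox17 was not called without WT library 1 (3.37, adjusted p = 0.00146) or WT library 2 (3.24, adjusted p = 0.00274). Gata4 was the exception among them, at 18.8 and 20.2 against 12.7 and 8.75 CPM, a log2 fold change of 0.87 (SE 0.19, adjusted p = 0.002) that was not called.

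Basement membrane genes, which parietal endoderm makes in quantity, were higher from a higher WT level. Col4a1, a collagen IV chain, was at 229 and 267 CPM in Mtf2 null and 41.1 and 35.2 CPM in WT libraries, and Col4a2, Lamb1 and Sparc were called higher as well, by log2 fold changes of 2.47, 1.48 and 1.67. Lama1, a laminin chain, was at 225 and 246 against 124 and 126 CPM, and its log2 fold change of 0.91 (SE 0.13, adjusted p = 3.50e-05) stayed under the fold limit. The late marker genes of the same lineage were nearly silent: Afp, which encodes alpha-fetoprotein, had 1 count in all 4 libraries, and Ttr had 1 count in each Mtf2 null library and 0 in both WT libraries. The 4 defining markers Afp, Ttr, Amn and Cubn summed to 72.3 and 70.7 CPM in Mtf2 null and 2.62 and 2.63 CPM in WT libraries, and Cubn made up most of that sum.

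**Figure D2:**
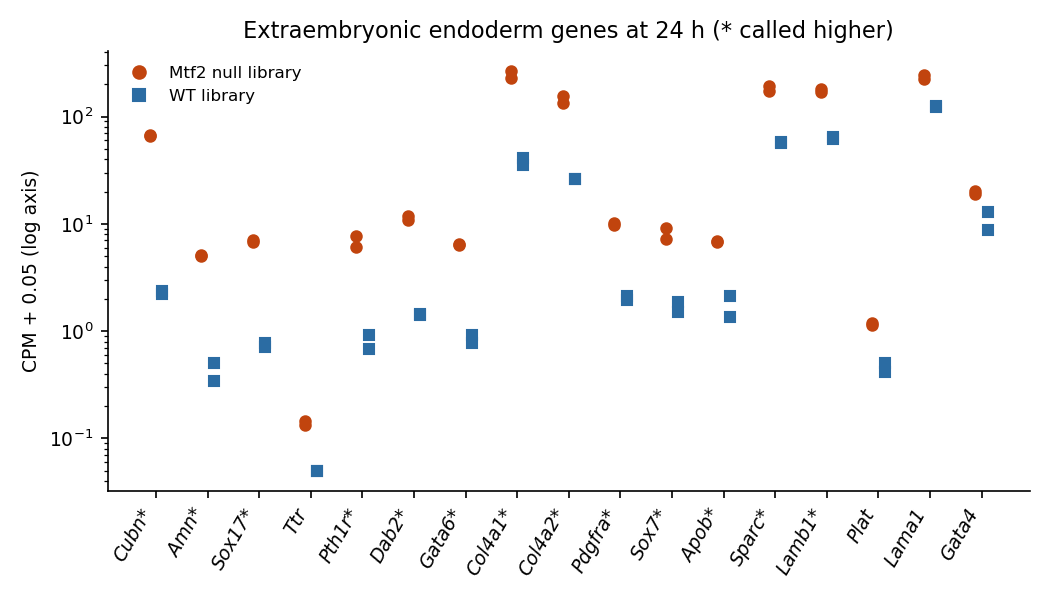
Level of the 17 tested extraembryonic endoderm genes in each 24 h library, as CPM plus 0.05 on a log axis, with circles for the 2 Mtf2 null and squares for the 2 WT libraries. For the 13 genes with an asterisk, called higher, both circles lie above both squares, as for Cubn at 67.2 and 65.5 against 2.17 and 2.33 CPM.

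Definitive endoderm genes were split. Of 15 tested members 5 were called higher and 1 lower, 40.0% against 5.72% of all genes tested. Sox17 and Gata6 were shared with the list above. The median log2 fold change of 0.48 was 0.31 without Mtf2 null library 1, 0.23 without WT library 1 and 0.00 without the filter on low counts. Foxa2, a forkhead factor of endoderm and axial mesoderm, was at 1.90 and 2.17 CPM in Mtf2 null and 0.362 and 0.0729 CPM in WT libraries, a log2 fold change of 3.26 (SE 0.58, adjusted p = 3.11e-04). When a library was left out, Foxa2 kept its call only without WT library 1, and it had 2.46 (adjusted p = 0.0163) without WT library 2, 3.35 (0.00169) without Mtf2 null library 1 and 3.16 (0.00355) without Mtf2 null library 2. Cer1, a secreted Nodal antagonist of endoderm, had 0 counts in all 4 libraries. Otx2, a homeobox factor of anterior epiblast and anterior endoderm, went the other way, at 0.570 and 0.502 against 5.88 and 5.40 CPM, a log2 fold change of -3.37 (SE 0.39, adjusted p = 1.94e-06).

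Of 23 tested genes of lateral plate and cardiac mesoderm, 3 were called higher and 1 lower, 17.4% against 5.72% of all genes tested. Their median log2 fold change was 0.63, but it was 0.29 without Mtf2 null library 2, 0.31 without WT library 2 and -0.06 in a fit of the 4 libraries alone, so that its sign was not stable. Besides Gata6 these were Pdgfra, a receptor of nascent mesoderm and primitive endoderm, at 10.2 and 9.62 against 2.08 and 1.90 CPM, and Tbx20, a cardiac T-box factor, at 7.79 and 8.20 against 1.99 and 1.53 CPM. Bmp4, whose product is also among the added factors, was at 15.7 and 16.1 CPM in Mtf2 null and 50.4 and 49.2 CPM in WT libraries. Its 2 groups lay far apart, with a log2 fold change of -1.65 (SE 0.19, adjusted p = 1.76e-06). Among 15 tested genes of endothelial and blood progenitors 4 were called higher and 0 lower, 26.7% of those tested, and 10 of the 15 had a log2 fold change above 0. The called genes were Runx1, a blood transcription factor, at 11.6 and 10.8 against 1.72 and 1.60 CPM (log2 fold change 2.75, SE 0.26), Sox7, and the receptors Flt1 and Tek. Pecam1, the most abundant member, was at 43.9 and 50.1 against 77.5 and 84.3 CPM. Its log2 fold change of -0.78 (SE 0.17, adjusted p = 0.00151) was not called. Of 39 Hox genes only 10 passed the filter on low counts, and 1 of these (10.0%), Hoxb9, was called lower at 0.570 and 0.418 against 3.25 and 2.33 CPM. Flt1 and Hoxb9 lost their calls whichever library was left out, with log2 fold changes of 1.41 to 1.77 and -2.70 to -2.23, and Tek lost it without WT library 2 (1.31, adjusted p = 0.0014).

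Several epithelial genes were higher and 2 mesenchymal genes lower in Mtf2 null cells. Among 17 genes of the epithelial-mesenchymal transition 4 were called higher and 2 lower, 35.3% against 5.72% of all genes tested. Epcam, an epithelial adhesion molecule, was at 230 and 236 CPM in Mtf2 null and 57.2 and 57.8 CPM in WT libraries, a log2 fold change of 2.02 (SE 0.11, adjusted p = 3.63e-11). The tight junction genes Cldn6, at 94.5 and 99.4 against 16.4 and 12.5 CPM, Cldn7, at 26.9 and 33.0 against 2.98 and 2.55 CPM, and Ocln were the others called higher. Vim, the mesenchymal intermediate filament vimentin, was at 16.2 and 15.1 CPM in Mtf2 null and 96.9 and 95.3 CPM in WT libraries. Its log2 fold change was -2.62 (SE 0.23, adjusted p = 4.62e-08), and that of Zeb1, a repressor of epithelial genes, was -2.38 (SE 0.15) with 4.75 and 4.85 against 24.2 and 26.0 CPM. Not all genes of the list took part: Cdh1, which encodes E-cadherin, had a log2 fold change of 0.47 (adjusted p = 0.0115), and Fn1, fibronectin, one of -0.41 (adjusted p = 0.0556). Snai1, at 4.47 and 5.44 against 2.35 and 2.92 CPM, was higher by 0.90 (SE 0.25, adjusted p = 0.0113). Twist1, at 4.18 and 3.93 against 2.17 and 1.09 CPM, was higher by 1.33 (SE 0.39, adjusted p = 0.0179). Neither was called, nor was Zeb2, with a log2 fold change of -1.45 (adjusted p = 0.00663).

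The simple epithelial keratins Krt8, Krt18 and Krt19 were called higher, with Krt18 at 42.5 and 48.6 against 9.94 and 7.80 CPM. They and Tfap2c, a factor of trophoblast and germ cells at 28.3 and 31.4 against 6.87 and 8.32 CPM, were the 4 called among 13 tested genes of the trophoblast and simple epithelium list. The 4 made up 30.8% of the genes tested in this list, against 5.72% of all genes tested. The defining trophoblast markers Elf5, Cdx2 and Krt7 were not called. Grhl2, a grainyhead factor of epithelia and formative epiblast, was at 60.1 and 61.5 CPM in Mtf2 null and 7.14 and 6.78 CPM in WT libraries, with a log2 fold change of 3.13 (SE 0.14, adjusted p = 1.61e-12).

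Of the pluripotency genes, none of 10 core members was called, and Pou5f1, at 571 and 618 against 717 and 681 CPM, and Sox2, at 238 and 217 against 228 and 214 CPM, had log2 fold changes of -0.23 and 0.04. Of 15 naive genes 1 was called in each direction, 13.3% against 5.72% of all genes tested. Zfp42, which encodes REX1, was at 64.2 and 73.0 CPM in Mtf2 null and 343 and 324 CPM in WT libraries (log2 fold change -2.28, SE 0.15, adjusted p = 2.84e-10), and Dppa3 was higher at 5.32 and 4.43 against 0.271 and 0.656 CPM. Esrrb was at 361 and 382 against 507 and 499 CPM and was not called (log2 fold change -0.44, adjusted p = 0.0598).

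Of 16 formative epiblast genes 4 were called higher, Grhl2, Pou3f1, Dnmt3b and Dnmt3l, and 2 lower, Otx2 and Zic2. These are 37.5% of the list, against 5.72% of all genes tested. Dnmt3b, a de novo DNA methyltransferase, was at 129 and 127 against 56.7 and 60.3 CPM, while Zic2, a zinc finger factor, was at 1.81 and 1.76 against 6.15 and 5.18 CPM. Among 13 germ cell genes, Dppa3, Sycp1, Tex15 and Tfap2c were called higher and Kit lower, 38.5% of those tested. Tex15, a meiosis gene, was the most abundant of them, at 142 and 102 against 32.9 and 28.3 CPM. Of 16 genes of a list of cell cycle inhibitors, D-type cyclins and p53 targets, Ccnd2, the cyclin D2 gene, which promotes the cell cycle, was the only one called, at 45.5 and 44.5 against 6.06 and 6.35 CPM. This is 6.25% of that list, near the share of all genes tested. None of 6 tested fibroblast genes was called. Of these calls, single libraries decided Zic2 (adjusted p up to 0.00227 without Mtf2 null library 2), Pou3f1 (0.00751 without WT library 2 and 0.00272 without Mtf2 null library 1), Kit (0.00206 without Mtf2 null library 2) and Sycp1 (0.0228 without Mtf2 null library 1).

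Among 15 tested neural ectoderm genes Olig2 and Sox11 were called higher, 13.3% against 5.72% of all genes tested. Olig2, a basic helix-loop-helix factor of oligodendrocyte and motor neuron precursors, was at 21.9 and 21.8 CPM in Mtf2 null libraries and had 0 counts in both WT libraries. This is at least 181-fold higher, taking 3 counts over both WT libraries as the limit. Sox11 was at 90.4 and 80.9 against 17.1 and 20.6 CPM. Nes, the neural intermediate filament nestin, was at 14.9 and 14.8 against 5.88 and 3.79 CPM, a log2 fold change of 1.64 (SE 0.38, adjusted p = 0.00296) that was not called. It was called by DESeq2 (adjusted p = 4.17e-05), without the filter on low counts and in a fit of the 4 libraries alone. Sox1, a neural SRY-box factor, was at 0.665 and 2.09 against 4.70 and 3.43 CPM and was not called.

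**Figure D3:**
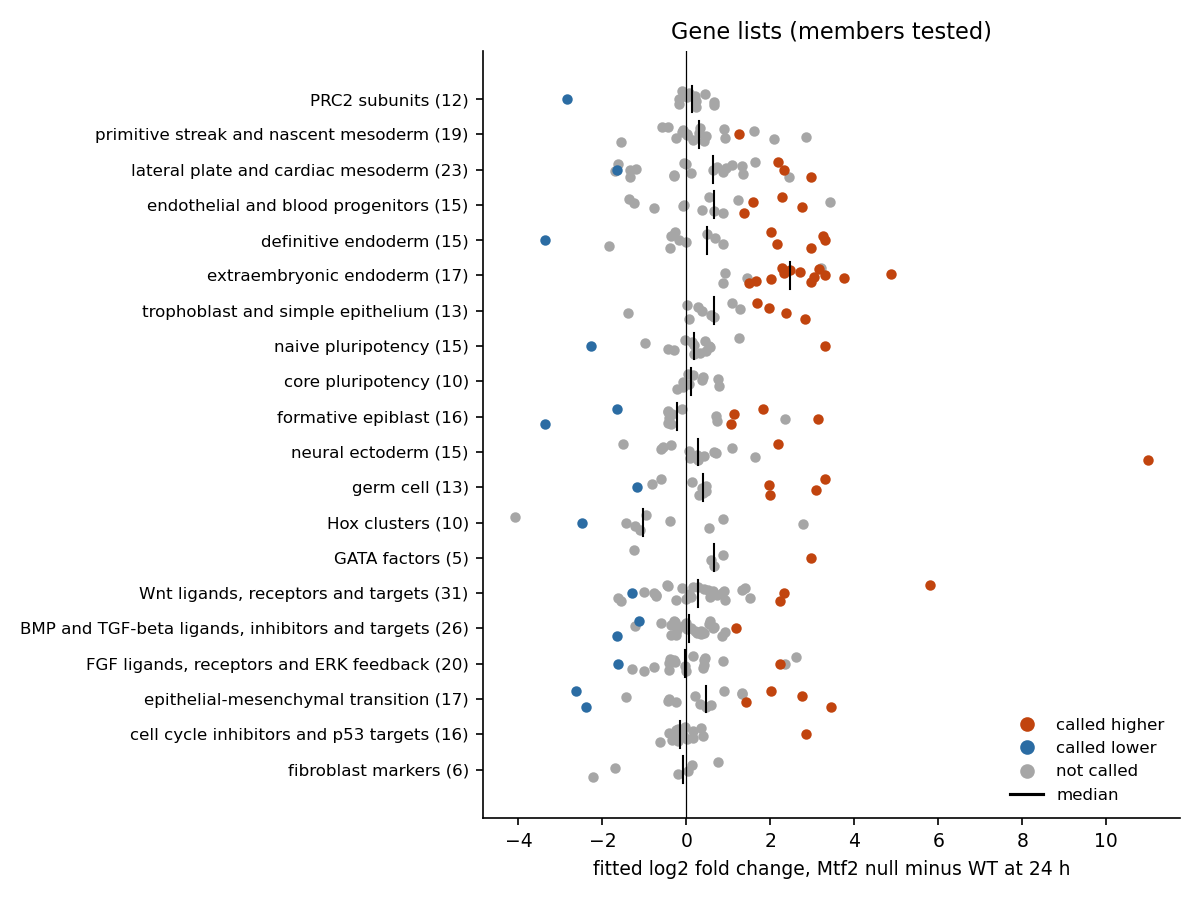
Fitted log2 fold change at 24 h, Mtf2 null minus WT, of each tested member of the 20 gene lists, with the number tested in brackets, called genes coloured and a bar at the median of each list. The extraembryonic endoderm list has the highest median, 2.47, and the point farthest to the right is Olig2, which had 0 counts in WT libraries and whose fitted value is therefore no measure of size.

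Genes of the Wnt, BMP and FGF pathways were called in both directions. Of 31 tested Wnt genes 3 were called higher and 1 lower, 12.9% against 5.72% of all genes tested. Their median log2 fold change was 0.28, and it was 0.14 without Mtf2 null library 2 and 0.13 without WT library 2. Dkk1, a secreted Wnt inhibitor, was at 13.5 and 14.8 CPM in Mtf2 null and 0.362 and 0.146 CPM in WT libraries, a log2 fold change of 5.80 (SE 0.45, adjusted p = 9.97e-09). The ligands Wnt11, at 5.42 and 6.27 against 1.18 and 1.31 CPM, and Wnt7b, at 5.13 and 6.69 against 1.27 and 1.09 CPM, were higher, and the receptor Fzd5, at 56.8 and 53.3 against 135 and 135 CPM, was lower. Axin2, a feedback gene that reports Wnt signalling, was at 125 and 116 against 139 and 146 CPM (log2 fold change -0.24, adjusted p = 0.0976), after a called increase of 3.71 in WT cells over 24 h. Wnt11 was not called when any of the 4 libraries was left out (2.11 to 2.32), nor Wnt7b without WT library 2 (2.22, adjusted p = 0.00115).

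Of 26 BMP and TGF-beta genes Id4 was called higher and Bmp4 and Lefty2 lower, 11.5% of the list against 5.72% of all genes tested. Lefty2, a Nodal antagonist and target, was at 186 and 163 CPM in Mtf2 null and 391 and 368 CPM in WT libraries, a log2 fold change of -1.12 (SE 0.21, adjusted p = 5.53e-04). Of 20 FGF genes the receptors Fgfr2, at 2.57 and 2.84 against 0.723 and 0.438 CPM, and Fgfr4, at 2.28 and 2.01 against 6.15 and 7.08 CPM, were called in opposite directions. They made up 10.0% of the list, against 5.72% of all genes tested. Etv5, a target of FGF signalling through ERK, was at 155 and 158 against 313 and 313 CPM, and its log2 fold change (SE 0.14, adjusted p = 2.56e-05) fell just short of the fold limit. Lefty2 and Fgfr4 were not called when any of the 4 libraries was left out, with log2 fold changes of -1.22 to -1.03 and -1.72 to -1.52, and Fgfr2 was not called without WT library 2 (1.89, adjusted p = 0.00175). Etv5 was called without Mtf2 null library 2 (-1.01) and without WT library 1.

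Because MTF2 binds CpG-rich DNA, the bases before the start of 4 called genes are shown, those of transcription factors and ligands higher in Mtf2 null cells with the largest log2 fold changes for which RefSeq (GRCm38.p6) gave a promoter, with each CG in capitals. They run up to the start of the gene and are written 5′ to 3′ in the direction of the gene: Olig2 chr16:91225300-91225456 on the plus strand, and Dkk1 chr19:30549666-30549746, Foxa2 chr2:148046970-148047219 and Runx1 chr16:92826150-92826324 on the minus strand.
Olig2: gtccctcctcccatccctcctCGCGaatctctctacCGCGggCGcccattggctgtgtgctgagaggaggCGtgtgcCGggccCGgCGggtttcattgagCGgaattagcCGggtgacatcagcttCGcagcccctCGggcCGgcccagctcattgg
Dkk1: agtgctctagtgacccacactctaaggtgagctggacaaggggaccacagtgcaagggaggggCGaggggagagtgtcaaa
Foxa2: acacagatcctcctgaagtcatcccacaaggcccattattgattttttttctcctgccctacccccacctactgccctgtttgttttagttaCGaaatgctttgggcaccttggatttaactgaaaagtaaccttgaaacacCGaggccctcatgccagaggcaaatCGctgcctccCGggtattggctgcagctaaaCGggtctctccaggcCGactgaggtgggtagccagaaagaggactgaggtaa
Runx1: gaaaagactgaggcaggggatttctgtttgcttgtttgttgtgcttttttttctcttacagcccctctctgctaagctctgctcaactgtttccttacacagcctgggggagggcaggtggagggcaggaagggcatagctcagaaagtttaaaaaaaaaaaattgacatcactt
The Olig2 stretch held 14 CG in 157 bases, that of Dkk1 1 in 81, that of Foxa2 6 in 250 and that of Runx1 0 in 175. For each gene a single promoter was taken, without bases past the start. The counts therefore do not describe other promoters of these genes or CpG-rich sequence beyond the start. The sequence GATAA, to which GATA factors bind, was on neither strand of the 4. A comparison of promoters between called and other genes was void, because 64.7% of the genes tested had a RefSeq promoter in the table, under the minimum of 80%.

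Some of the largest differences were in genes that were nearly silent in 1 of the lines. Hprt, a purine salvage enzyme whose loss marks the E14TG2a subline of E14, was at 93.9 and 77.7 CPM in Mtf2 null libraries and 0.181 and 0.219 CPM in WT libraries, and at 0.832 and 0.655 CPM in Jarid2 null libraries of the same time. Plagl1, an imprinted zinc finger gene, was at 56.1 and 42.7 against 0.452 and 0.365 CPM, and Nod1, an innate immune receptor, at 23.8 and 26.8 against 0.0904 and 0.146 CPM, which is a ratio of 210 with an exact 95% interval for counting error of 71.4 to 1020. The noncoding RNAs Meg3, Rian and Mirg of the imprinted Dlk1-Dio3 region were lower, with Meg3 at 0.190 and 0.335 against 51.6 and 64.0 CPM and Rian at 1.43 and 1.25 against 102 and 96.9 CPM. Mirg had 0 counts in both Mtf2 null libraries and was at least 132-fold lower. Jarid2 null libraries had Meg3 at 65.2 and 70.8 CPM and Rian at 104 and 115 CPM, near the WT levels.

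The genes with the largest log2 fold changes among those called lower were mostly copies of other genes. Pseudogenes made up 26.1% of the 540 genes called lower, against 2.54% of the 511 called higher and 5.48% of all genes tested. For 140 of the genes called lower more than 50% of the 31-base words of their transcripts also occur in transcripts of other genes, so that reads can be assigned to the wrong copy, and their values are uncertain. Kpna2, a nuclear import factor, was at 331 and 336 against 6.15 and 4.89 CPM, while its copy Gm10184 had 0 counts in Mtf2 null libraries and was at 248 and 221 CPM in WT libraries. Summed, the pair was at 331 and 336 against 254 and 226 CPM. In the same way Eno1 and Eno1b, the latter at 1.33 and 0.418 against 826 and 791 CPM, summed to 1480 and 1570 against 1550 and 1510 CPM, and Hmga1 and Hmga1b to 647 and 670 against 559 and 549 CPM. Among protein-coding genes with at most 50% of such words shared, 748 genes were called, 437 higher and 311 lower.

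Chosen after these values were seen, the protein-coding genes lower by most in that set had known functions in several processes. Kbtbd11, a kelch-repeat gene, was at 0.855 and 0.753 CPM in Mtf2 null and 35.1 and 40.1 CPM in WT libraries, a log2 fold change of -5.54 (SE 0.31, adjusted p = 4.48e-11). Mid1, an X-linked ubiquitin ligase that binds microtubules, was the most abundant of them in WT cells, at 20.9 and 24.8 against 387 and 425 CPM. Mmrn2, an extracellular matrix protein of blood vessels, was at 0.950 and 1.51 against 29.7 and 28.4 CPM, Traip, a ubiquitin ligase of DNA replication, at 4.66 and 4.60 against 44.7 and 44.4 CPM, and Smc1b, a meiotic cohesin subunit, at 0.760 and 1.51 against 11.7 and 12.5 CPM. The rule that picked these genes required that their groups not overlap between genotypes.

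The difference between genotypes was present before differentiation for most of these genes. In undifferentiated cells 2047 genes (11.1%) were called between Mtf2 null and WT libraries, 6.47% of the genes tested higher and 4.68% lower, which are other libraries than those at 24 h. Of the 1051 genes called at 24 h 766 were called in the same direction there, 72.9% of the calls at 24 h and 37.4% of those in undifferentiated cells, and 1 was called in the opposite direction. The sign was the same for 1020 of the 1051. At 5 h 1388 genes (7.56%) were called, with 3.45% higher and 4.11% lower, and 769 were shared, 73.2% and 55.4% of the respective calls. At 48 h 1252 genes (6.82%) were called, with 3.76% higher and 3.06% lower, and 667 were shared, 63.5% and 53.3%. The extraembryonic endoderm list had 15 members called higher in undifferentiated cells, 12 at 5 h and 17 at 48 h, beside the 13 at 24 h.

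Cubn fell in both genotypes over the first 24 h, from 176 and 206 CPM to 67.2 and 65.5 CPM in Mtf2 null cells (log2 fold change -1.53, adjusted p = 8.34e-07) and from 12.6 and 8.26 CPM to 2.17 and 2.33 CPM in WT cells. At 48 h it was at 713 and 858 CPM in Mtf2 null and 17.0 and 16.9 CPM in WT libraries. Gata6 had the same order, at 15.7 and 17.3 CPM undifferentiated, 6.27 and 6.44 CPM at 24 h and 25.5 and 23.1 CPM at 48 h in Mtf2 null cells, and at most 2.35 CPM in any WT library. For both genes the 24 h level was the lowest or near the lowest of the time course in Mtf2 null cells. At 5 h Gata6 was not called higher in Mtf2 null than in WT cells. T was seen at 24 h almost alone, with 2.14 and 4.12 CPM in Mtf2 null and 0.903 and 1.67 CPM in WT libraries at 5 h and at most 0.0792 CPM in any of these libraries at 48 h.

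**Figure D4:**
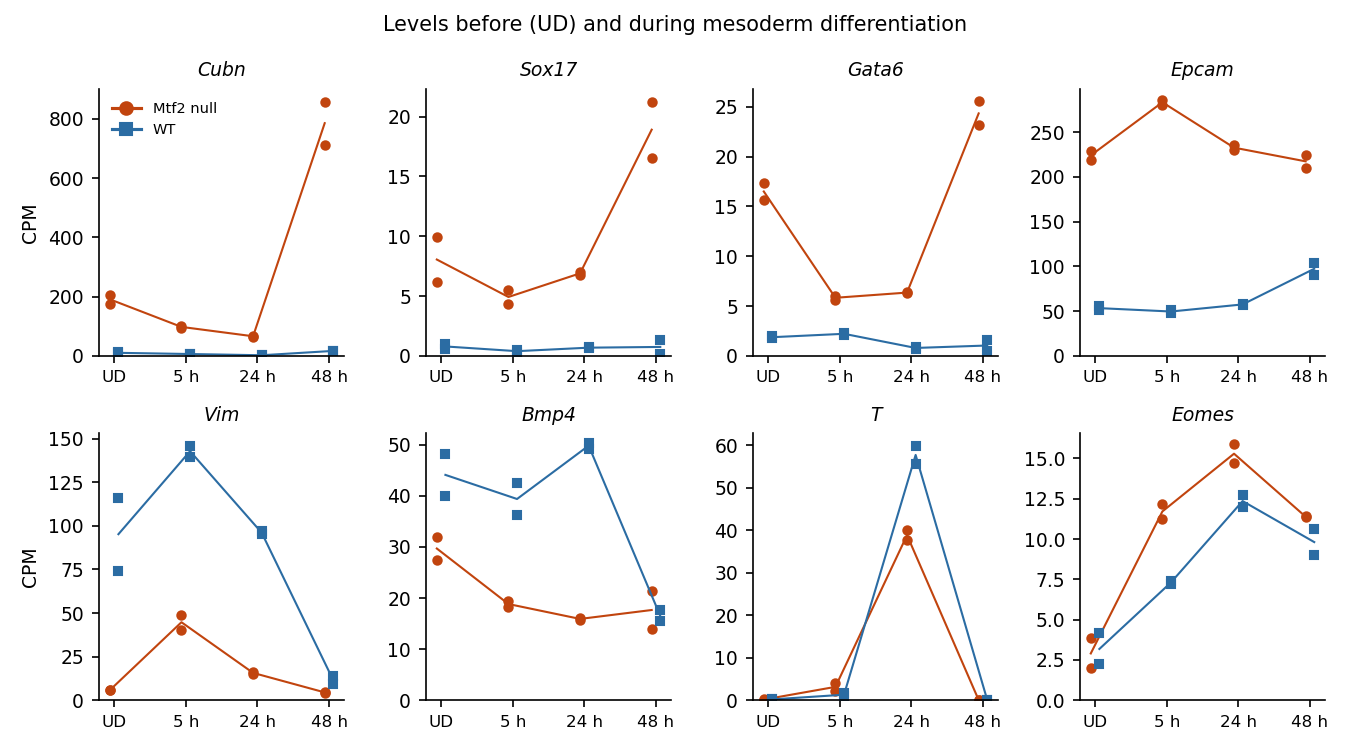
Levels in CPM of 8 genes in undifferentiated cells (UD) and at 5, 24 and 48 h of mesoderm differentiation, with circles for Mtf2 null and squares for WT libraries, 2 at each point, and lines through their means. Cubn, Sox17 and Gata6 lie higher in Mtf2 null cells at each time and peak at 48 h, although Gata6 was not called higher at 5 h. T peaks at 24 h in both genotypes.

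Whether the difference between genotypes changed between undifferentiated cells and 24 h was tested as an interaction. It was called for 417 genes (2.27%), in 98 of which (0.534%) the log2 fold change was more positive at 24 h and in 319 (1.74%) more negative. Only 53 of the 417 were also called at 24 h, 27 higher and 26 lower. Of the other 364, 205 had been higher in undifferentiated Mtf2 null cells and were no longer called at 24 h, and 60 had been lower and were no longer called. The count of 417 moved with single libraries, to 156 without Mtf2 null library 1 at 24 h and to 579 without undifferentiated WT library 1.

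Genes of several kinds lost their difference. Cdkn1c, a cell cycle inhibitor, was at 13.7 and 18.2 CPM in Mtf2 null and 94.0 and 82.3 CPM in WT cells before differentiation, and at 9.22 and 9.53 against 8.95 and 7.88 CPM at 24 h, an interaction of 2.63 on the log2 scale (SE 0.30, adjusted p = 1.15e-05). The WT level fell to that of Mtf2 null cells. The same held for Slc16a3, a lactate transporter, at 11.0 and 11.4 against 115 and 93.4 CPM before and 9.98 and 11.0 against 10.6 and 8.24 CPM at 24 h. For Nodal it was the WT level that rose, from 34.5 and 29.8 CPM to 65.8 and 66.3 CPM, to meet an Mtf2 null level of 59.3 and 71.2 CPM before and 59.1 and 66.2 CPM at 24 h (interaction -1.10, SE 0.18, adjusted p = 3.94e-04). Esrrb went from higher in Mtf2 null cells, 655 and 651 against 447 and 286 CPM, to 361 and 382 against 507 and 499 CPM (interaction -1.27, SE 0.23, adjusted p = 9.04e-04).

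Other differences appeared or grew by 24 h. Slc30a3, a zinc transporter, was at 0.654 and 0.518 against 1.77 and 1.11 CPM before differentiation and at 10.6 and 11.5 against 3.07 and 2.63 CPM at 24 h, an interaction of 3.22 (SE 0.49, adjusted p = 1.83e-04). Without WT library 2 its difference at 24 h was not called (1.85, adjusted p = 0.00148). Pdzd2, a PDZ domain protein, was at 20.2 and 18.0 against 37.1 and 21.5 CPM before and at 3.80 and 3.93 against 35.0 and 37.5 CPM at 24 h (interaction -2.62, SE 0.30, adjusted p = 1.03e-05). Itga8, an integrin chain, was at 0.654 and 1.14 against 0.591 and 1.36 CPM before and at 0.950 and 1.92 against 13.1 and 14.1 CPM at 24 h, but its interaction of -3.04 (SE 0.67, adjusted p = 0.00386) was not called.

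**Figure D5:**
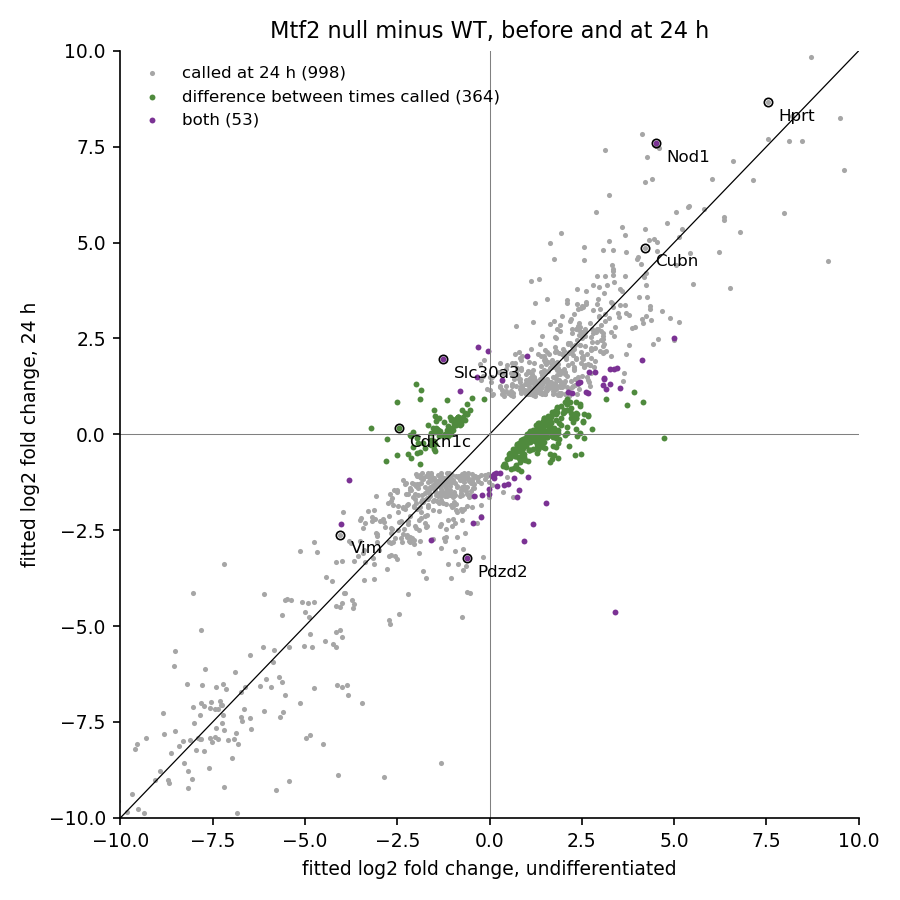
Fitted log2 fold change, Mtf2 null minus WT, in undifferentiated cells (horizontal axis) and at 24 h (vertical axis), for the 998 genes called at 24 h alone, the 364 called for the difference between times alone and the 53 called for both. Only called genes are drawn, so the empty middle is set by the call, and genes outside 10 on either axis are left out. Hprt, Cubn and Vim keep their sign, and Cdkn1c lies near 0 at 24 h.

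The same genotypes at 24 h of endoderm differentiation, a condition that starts with a more anterior primitive streak, were measured in other libraries. There 1321 of 19601 genes (6.74%) were called between Mtf2 null and WT. Of the 1051 genes called at 24 h of mesoderm differentiation, 880 were called there in the same direction, 83.7% of them and 67.0% of the 1313 endoderm calls among genes tested in both, and 1049 had the same sign. A direct test of the difference between the experiments called 1 gene (0.0051%), Gm10073, while 1011 genes had an unadjusted p under 0.05, and DESeq2 called 5 genes. T came nearest among primitive streak genes, at 3.53 and 3.61 CPM in Mtf2 null and 26.5 and 21.9 CPM in WT libraries of the endoderm experiment, a difference between the experiments of 2.18 on the log2 scale (SE 0.38, adjusted p = 0.00757) that was not called at 0.001. The endoderm WT libraries also held mitochondrial ribosomal RNA, with mt-Rnr2 at 184 and 273 CPM against at most 22.0 CPM in the other Mtf2 null and WT libraries at 24 h, and its part in this comparison was not tested.

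Mtf2 null cells also differed from Jarid2 null cells at 24 h, in 1647 genes (8.97%), 930 higher (5.07%) and 717 lower (3.91%) in Mtf2 null cells. The libraries of Mtf2 null cells are the same as in the comparison with WT. The study's methods name a different matched control line for each mutant. The lost gene and other differences between the lines therefore cannot be told apart here either. Cubn was at 1.13 and 1.12 CPM in Jarid2 null libraries, a log2 fold change of 5.86 (adjusted p = 9.18e-13), Epcam at 48.6 and 56.4 CPM and Vim at 65.2 and 65.9 CPM, and all 3 genes were called in the direction they had against WT. Of the 17 tested extraembryonic endoderm genes 14 were called higher in Mtf2 null than in Jarid2 null cells and 0 lower. Bmp4 was at 18.6 and 29.2 CPM in Jarid2 null libraries, and its log2 fold change between the mutants of -0.58 (adjusted p = 0.0254) was not called. T, at 0.34 between the mutants (adjusted p = 0.320), was not called either.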

How the data were processed

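Total RNA of monolayer cultures was depleted of ribosomal RNA and sequenced in pairs on an Illumina NextSeq. The authors deposited estimated counts per gene made with Salmon, without normalization, for all 24 mesoderm and all 24 endoderm libraries (submitters' notes: GRCm38, mm10; CASAVA, Bowtie2, HTSeq, Salmon and DESeq2 are listed for the series), of which 74.9% of the mesoderm values were whole. They were rounded. Salmon shares reads among similar transcripts by estimate, so closely related copies are uncertain.

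Genes passing filterByExpr (minimum count 10, minimum total 15) were fitted in edgeR 4.0.16 (R 4.3.3) with TMM scaling, 1 mean per genotype and time over all 24 mesoderm libraries (common dispersion 0.0136), or over 48 libraries for the comparison with endoderm. The SE of a log2 fold change is its size over the square root of F. CPM are TMM-scaled. At 24 h the 2 Mtf2 null libraries differed by 7.307 and the 2 WT libraries by 3.201 times the sampling noise (chi-square over degrees of freedom), so each was counted as a sample. This does not show that they came from separate cultures. The limit set by a count of 0 is 3 counts over the group and covers counting error only, as do exact intervals. Alternatives were DESeq2 1.42.0, its size factors, no filter, a replicate block, 4 libraries alone and leaving out each library. Shared 31-base words and biotypes come from GENCODE vM21.

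Members, gene lists and tests were chosen with earlier results of these data known. Named genes were Mtf2, genes the study shows, the 12 largest differences each way (5 CPM or more on average where higher), up to 5 called and 4 uncalled members per list and up to 6 genes each way per interaction. The largest differences and the genes per interaction had to be called, with library values that did not overlap. Others were chosen after their values were seen. A gene that this rule names is not reported here. Pseudogenes and unnamed gene models are counted, not described one by one.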

Additional observations from a re-analysis of the deposited data

Results flagged for a closer look

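The difference between Mtf2 null and WT cells itself differed between undifferentiated cells and 24 h for 417 genes, and between the mesoderm and endoderm experiments at 24 h for 1 gene, by tests of the difference with edgeR's quasi-likelihood test and Benjamini-Hochberg adjustment. That gene, Gm10073, had a difference of 7.41 on the log2 scale between the experiments. It is an unnamed gene model. It was at 1.93 and 2.79 CPM in Mtf2 null and 0.823 and 0.370 CPM in WT libraries of the mesoderm experiment, and at 1.45 and 1.25 against 52.2 and 60.1 CPM in the endoderm experiment. The endoderm WT libraries were also the high ones for mt-Rnr1, mt-Rnr2 and Lars2. Lars2 was at 1754 and 1933 CPM there against at most 38.6 CPM in the other Mtf2 null and WT libraries at 24 h. The part of these libraries in the difference of Gm10073 was not tested.

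Between the times, the log2 fold change became more positive for Slc16a3 (3.38), Bnip3 (3.35), Slc30a3 (3.22), Nod1 (3.09), Ier3 (3.00), Cdkn1c (2.63) and Axin2 (1.22). Bnip3, a mitophagy receptor, was at 22.1 and 22.4 against 111 and 143 CPM in undifferentiated cells and at 9.03 and 5.69 against 4.79 and 3.43 CPM at 24 h. Axin2 was at 3.55 and 4.35 against 12.5 and 9.37 CPM before differentiation, lower in both Mtf2 null libraries, and at 125 and 116 against 139 and 146 CPM at 24 h.

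It became more negative for Itpr2 (-4.82), Adgrd1 (-3.74), Tmem144 (-3.30), Zfp750 (-2.99), Pdzd2 (-2.62), Fst (-2.24), Prdm1 (-1.79), Sesn2 (-1.63), Fn1 (-1.47), Klf5 (-1.35), Esrrb (-1.27), Mdm2 (-1.26), Spry2 (-1.20), Lama1 (-1.19) and Nodal (-1.10). Itpr2, an intracellular calcium channel, was at 43.3 and 29.4 against 1.28 and 1.45 CPM before differentiation and at 2.47 and 4.43 against 3.34 and 4.08 CPM at 24 h. Klf5, a factor of naive pluripotency, was at 1136 and 1054 against 410 and 281 CPM before and at 589 and 547 against 458 and 456 CPM at 24 h. The p53 targets Mdm2, at 107 and 103 against 59.2 and 52.3 CPM before and 154 and 164 against 202 and 204 CPM at 24 h, and Sesn2 changed in the same direction. Fst, follistatin, an Activin inhibitor, was at 6.72 and 5.60 against 0.591 and 0.767 CPM before and 32.3 and 28.9 against 16.7 and 15.8 CPM at 24 h.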

How the results depend on the processing

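The 1051 genes called at 24 h became 1056 with DESeq2 size factors, 1002 with DESeq2, 1455 without the filter on low counts, 867 in a fit of the 4 libraries alone and 692 to 749 when a library was left out. An adjusted p under 0.05 gave 1888. The replicate numbers are not stated to mark a shared batch, and the deviations of same-numbered 24 h libraries correlated at -0.0213. With the replicate number as a block 1020 genes were called, and the 4 other comparisons stayed within 1.5 times their counts. The 417 genes of the comparison between times became 838 without the filter and 156 to 579 without a library. The 1 gene of the comparison between experiments became 5 with DESeq2, 115 without the filter and 1 to 2 without a library. The 1647 genes between the mutants ranged from 975 without Jarid2 null library 1 to 1528, and the 1278 genes between WT 24 h and undifferentiated libraries from 706 without undifferentiated WT library 2 to 1499, with 838 without 24 h WT library 2. The median log2 fold change of all genes at 24 h was -0.005 in the main fit and -0.001 with DESeq2 size factors. It was -0.02 without Mtf2 null library 2. The cause of these shifts was not tested.

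Of the 99 genes checked singly, 6 uncalled genes changed sign. Cdx2 was at -0.00 in the fit of 4 libraries alone, and when a library was left out the log2 fold changes ran from -0.03 to 0.04 for Cdx2, -0.36 to 0.84 for Krt7, -0.01 to 0.35 for Slc16a3, -0.59 to 0.25 for Itpr2, -0.16 to 0.00 for Nodal and -0.03 to 0.11 for Sox2. Calls were lost for 18 genes when a library was left out. The depth limits genes under about 1 CPM, where a WT group with 0 counts allows up to 0.121 CPM.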
